A study of Mus musculus with 24 samples.

Results

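Transcripts of 9 genes that make, receive, relay and restrain the interferon signal were followed through RNA-seq of mouse macrophages: the ligand gene Ifnb1, the receptor chains Ifnar1, Ifnar2, Ifngr1 and Ifngr2, the kinases Jak1 and Jak2, the transcription factor Stat2 and the inhibitor Socs1. Each was found by its exact symbol in both deposited tables, 9 of 56691 genes in all. The experiment asked how loss of Olfml3, a gene of the olfactomedin family of glycoproteins, alters macrophages at rest and after lipopolysaccharide (LPS), the bacterial cell wall product that TLR4 senses. It used RAW264.7, a mouse macrophage-like leukemia line, and bone marrow-derived macrophages (BMDMs) of C57BL/6 mice. Both cell types were wild type or Olfml3 knockout and received PBS or LPS at 100 ng/mL for 4 h, which gave 8 groups of 3 libraries. RAW264.7 cells had been edited with CRISPR-Cas9 by lentivirus and grown from single cells, so clone and genotype cannot be told apart. BMDMs came from the leg bones of male mice 8 weeks old, the knockout animals being Olfml3-/- by CRISPR-Cas9, and were cultured for 6 days with supernatant of L929 cells. The study calls the libraries of a group biological replicates. The labels do not say whether they came from separate cultures or animals, so p-values measure the spread between these libraries, which may be technical in part.

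Type I interferons such as interferon beta bind a receptor made of IFNAR1 and IFNAR2, and interferon gamma binds IFNGR1 and IFNGR2. The receptor chains carry the kinases JAK1 with TYK2, or JAK1 with JAK2, which phosphorylate STAT proteins. STAT2 and IRF9 are subunits of ISGF3, the complex that switches on interferon-stimulated genes, among them SOCS1, which blocks the kinases in return. LPS induces Ifnb1 in macrophages through TLR4, and the interferon then acts back on the same cells.

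Olfml3 itself fell in knockout BMDMs, from 0.597 to 0.0167 FPKM with PBS and from 0.247 to 0.00333 with LPS. In RAW264.7 it went against the label, at 0.163 FPKM with PBS and 0.183 with LPS in wild type, and at 5.82 times that level with PBS and 18.7 FPKM with LPS in the libraries labelled knockout. RNA levels do not show whether the edited gene still makes protein. In RAW264.7, replicate 1 of the PBS group labelled knockout stood apart, with a mean correlation across genes of 0.964 with its own group and 0.973 with wild type, and the differences below that rest on it are given with and without it. Libraries held 11638273 to 16478616 counts in RAW264.7 and 17121240 to 22873094 in BMDMs. All 9 macrophage markers listed reached 1 FPKM in BMDMs, and 8 of 9 in RAW264.7, where Mertk was at 0. Their summed level in RAW264.7 ran from 3346 to 4014 FPKM in wild type and from 1145 to 1420 in the libraries labelled knockout. Lyz2 contributed the most to this gap, at 2052 FPKM in wild type and 317 in the libraries labelled knockout with PBS. Csf1r (263 and 340 FPKM) and Fcgr1 (18.3 and 22.1, overlapping) were not lower with PBS. With LPS both were lower in the libraries labelled knockout, Csf1r at 100 and 78.5 FPKM and Fcgr1 at 22.3 and 7.96. Of the 4 markers of plasmacytoid dendritic cells listed, Siglech was at 1.12 FPKM in wild type and 9.21 in the libraries labelled knockout with PBS. Pacsin1 was at 0.10 and 0.95 and Ccr9 at 0.003 and 0.01 in these groups, and Ly6d was at 0 in RAW264.7 throughout. The T, NK and B cell lists summed to at most 0.31 FPKM in any RAW264.7 library. Whether these shifts bear on the values below was not tested, and in bulk RNA fewer cells of a type and less RNA per cell cannot be told apart.

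Levels are FPKM, fragments counted per length of transcript and per size of library, as mean ± SD of 3 libraries where a single value is given with an error. Differences are on the log2(FPKM + 0.1) scale, which understates change in genes of low level, and come with their standard error (SE). They were tested with limma over all 12 libraries of a cell type, with Benjamini-Hochberg adjustment over every gene tested. A gene was called when the adjusted p was under 0.05 and the fold change at least 1.5. The tables were normalized separately, so levels in the 2 cell types are set side by side without a test. LPS moved the median of expressed genes in BMDMs, by -0.76 on the log2 scale in wild type and -0.65 in knockout, and less so in RAW264.7 (-0.20 and -0.22). Of the genes called with LPS, 19.6% were higher in wild-type BMDMs and 20.6% in knockout, but 44.7% to 49.2% with edgeR, DESeq2 or median-ratio scaling. In RAW264.7 these shares were 31.7% and 33.8%, and 46.5% to 51.7% with those alternatives. After LPS, genes called between BMDM genotypes were 67.9% higher in knockout, and 43.3% to 49.4% with the same alternatives, around a median of 0.14. Values relative to the median are therefore given where it matters.

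LPS changed most of the 9 genes in both cell types. In wild-type RAW264.7 cells Ifnb1, Jak2, Stat2 and Socs1 rose and Ifnar2 and Ifngr1 fell, so that 6 of 9 were called where 18.3% of all genes were (5.8% higher and 12.5% lower). In the libraries labelled knockout 6 of 9 were called, where 22.1% of genes were (7.45% higher and 14.6% lower). Without replicate 1 of the PBS group it was 6 of 9, where 5774 of 26538 genes were called (1804 higher and 3970 lower). In wild-type BMDMs Ifnb1, Jak1, Jak2, Stat2 and Socs1 rose and Ifngr1 fell, 6 of 9 against 40.4% of all genes (7.94% higher and 32.5% lower). In knockout BMDMs Ifnar1 and Ifngr2 rose as well, for 8 of 9 called against 38.9% (8.02% higher and 30.9% lower). Median-ratio scaling, edgeR and DESeq2, which remove the shift of the median, called all 9 in wild-type BMDMs, with Ifnar1, Ifnar2 and Ifngr2 higher. Over all genes they called 8450 of 26973, 7865 of 14057 and 8282 of 27049, in that order. Of these, 4052, 3523 and 4071 were higher. In knockout BMDMs the same alternatives called Ifnar2 as well, also higher. Over all genes they called 8020, 7526 and 7831 there, of which 3752, 3362 and 3755 were higher.

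**Figure D1:**
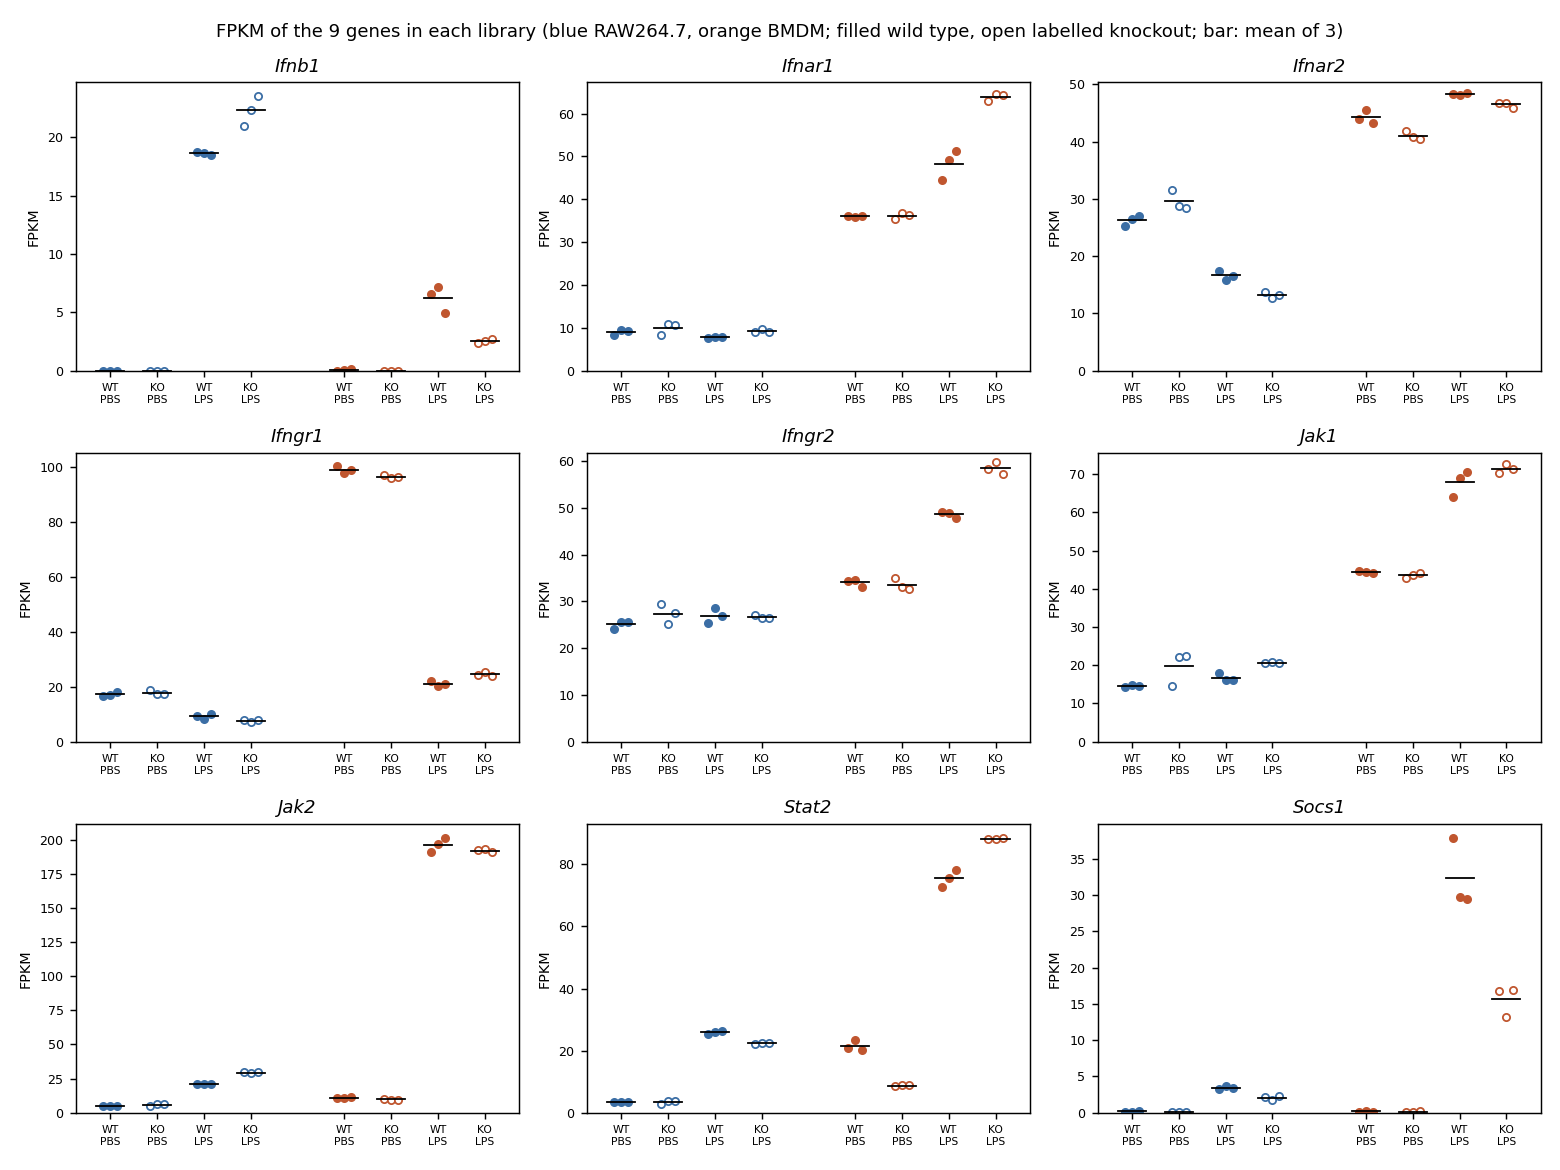
FPKM of the 9 genes in each of the 24 libraries, with 1 point per library and a bar at the mean of each group of 3, for wild type (WT, filled) and labelled knockout (KO, open) with PBS or LPS. Ifnb1 and Socs1 sit near 0 without LPS, Jak2 in BMDMs rises from 10.95 to 197 FPKM in wild type, and Stat2 in BMDMs is lower in knockout with PBS but not with LPS.

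Between genotypes few of the 9 were called. In RAW264.7 it was 1 of 9 with PBS (Socs1 lower), where 8.55% of genes were called and 3.77% were lower. Without replicate 1 of the libraries labelled knockout it was 2 of 9 (Jak1 higher as well). In that fit 5523 of 26538 genes were called, 3371 of them higher and 2152 lower. With LPS it was 1 of 9 (Socs1 lower), where 17.3% were called and 7.6% were lower. In BMDMs it was 1 of 9 with PBS (Stat2 lower), against 1.82% of genes called and 0.916% lower, and 2 of 9 with LPS (Ifnb1 and Socs1 lower), against 4.76% called and 1.53% lower. The genotype difference itself changed with LPS for 0 of 9 in RAW264.7 under limma, edgeR and DESeq2, where limma called 1.95% of genes. In limma 3 of the 9 had an unadjusted p under 0.05, and how many of all genes had such a p was not computed. Without that library the genotype difference changed for 0 of 9 under limma, where 904 of 26538 genes were called. It changed for 1 of 9 in BMDMs, Stat2, which was higher with LPS, against 2.93% of genes called and 1.91% higher.

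**Figure D2:**
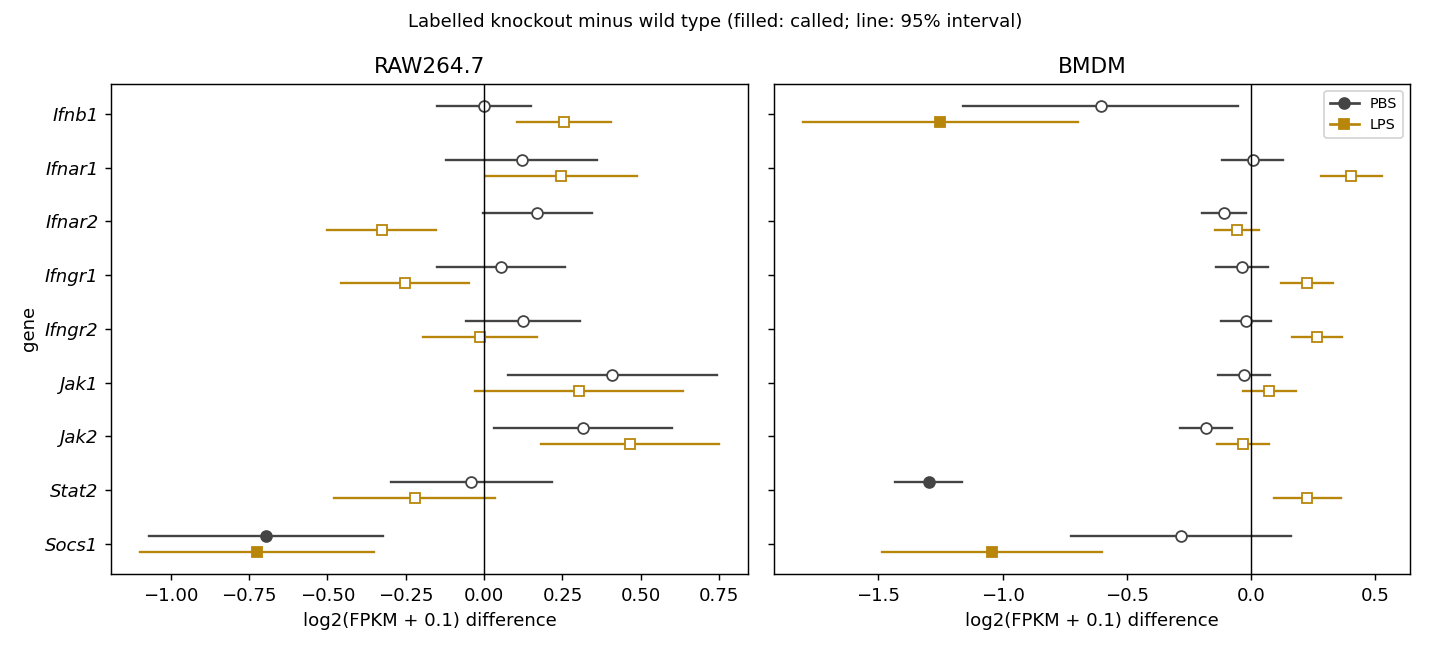
Difference between labelled knockout and wild type for each of the 9 genes in log2(FPKM + 0.1), with PBS (circles) and LPS (squares), lines giving 95% intervals and filled symbols the genes called. Socs1 lies below 0 in both cell types with LPS, Ifnb1 lies below 0 in BMDMs with LPS, and Stat2 lies at -1.30 in BMDMs with PBS.

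Ifnb1 encodes interferon beta. In RAW264.7 it had 0 counts in all 6 PBS libraries. With LPS it reached 18.75, 18.67 and 18.48 FPKM in wild type and 20.97, 22.36 and 23.51 in the libraries labelled knockout. All 3 of the latter lay above all 3 wild-type libraries. The difference was 0.26 (SE 0.07, limma adjusted p = 0.0213), under the fold of 1.5 and not called. It was 0.23 with edgeR (adjusted p = 0.133) and 0.24 with DESeq2 (adjusted p = 0.218). Against a floor of 3 counts summed over the PBS group, the LPS level was at least 199-fold higher in wild type and at least 261-fold higher in the libraries labelled knockout.

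In BMDMs Ifnb1 was lower in knockout after LPS. Wild-type libraries with PBS gave 0, 0.06 and 0.12 FPKM and knockout libraries gave 0 throughout. With LPS the wild-type libraries reached 6.53, 7.15 and 4.95 FPKM and the knockout libraries 2.34, 2.51 and 2.73. The LPS groups did not overlap. The level was 2.46 times as high in wild type, a difference of -1.25 (SE 0.25, limma adjusted p = 0.00652). LPS raised the share of counts 102-fold in wild type, with an exact 95% counting interval of 34.8 to 499.8 because only 3 counts stood in the PBS libraries, and at least 38.9-fold in knockout. These intervals and floors cover counting error only. The interaction was -0.65 (SE 0.35, limma adjusted p = 0.382), became -0.94 and was called with a pseudocount of 1, and was 1.43 with edgeR (adjusted p = 0.447) and 0.93 with DESeq2 (adjusted p = 0.762), with PBS levels at or near 0.

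The promoter of Ifnb1 in RefSeq (GRCm38.p6, minus strand, 300 bases from 250 before to 50 after the start) is shown in part because NF-kB, which LPS activates, is known to act at this promoter. Capitals mark GGGA, 4 bases of any kind and CC, or the same letters on the other strand, found in 20.7% of 32851 promoters. The stretches cover chr4:88522891-88522920 and chr4:88522868-88522897, in that order.
Ifnb1 far: aactgaaagtGGGAAATTCCtctgaggcag
Ifnb1 near: gaggcagaaaGGACCATCCCttataaatag
They lie 107 to 116 and 84 to 93 bases before the start. Of the other 8 promoters, that of Ifngr2 held this motif, in 2 overlapping matches. A match is a description of letters and not a site of binding.

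Ifnar1 and Ifnar2 encode the chains of the type I receptor, and behaved differently. In BMDMs Ifnar1 stood at 36.05, 35.87 and 36.17 FPKM in wild type with PBS and 35.46, 36.79 and 36.35 in knockout, which overlap. With LPS it stood at 44.61, 49.14 and 51.16 in wild type and 62.87, 64.45 and 64.33 in knockout, all higher. The LPS difference between genotypes was 0.40 (SE 0.05, limma adjusted p = 0.000783), under the fold, and 0.26 relative to the median of expressed genes. The interaction was also 0.40 (SE 0.08, limma adjusted p = 0.0150), and not called. Ifnar2 in BMDMs ran from 40.51 to 48.53 FPKM over all 12 libraries. Its LPS differences were 0.13 in wild type and 0.18 in knockout, not called, but 0.89 and 0.83 relative to the median. Those of Ifnar1 relative to the median were 1.18 and 1.47.

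In RAW264.7 Ifnar2 fell with LPS. Wild type went from 25.19, 26.55 and 27.01 FPKM to 17.48, 15.82 and 16.57, a difference of -0.66 (SE 0.08, limma adjusted p = 0.000144). The libraries labelled knockout went from 31.5, 28.7 and 28.46 to 13.78, 12.63 and 13.27, a difference of -1.15 (SE 0.08, limma adjusted p = 2.26e-06), or -1.11 without replicate 1 of the PBS group. Relative to the median the falls were -0.46 and -0.94, and the fall in wild type was below the fold with median-ratio scaling, edgeR and DESeq2. The interaction for Ifnar2 was -0.50 (SE 0.11, limma adjusted p = 0.0559), and -0.45 (adjusted p = 0.0242) without that library. Ifnar1 in RAW264.7 ran from 7.72 to 10.83 FPKM over all groups, and its difference between genotypes with LPS was 0.25 (95% interval 0.01 to 0.49).

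The ratio of the chains within a library does not depend on how libraries are scaled. Ifnar1 divided by Ifnar2 was 0.346 ± 0.010 in wild-type RAW264.7 with PBS, 0.470 ± 0.026 with LPS and 0.703 ± 0.059 with LPS in the libraries labelled knockout. In BMDMs it was 0.815 ± 0.024, 1.00 ± 0.067 and 1.38 ± 0.030 (SD, n = 3 throughout), and 0.883 ± 0.030 in knockout with PBS. Among the 4 groups the ratio was highest with LPS in knockout BMDMs and in the RAW264.7 libraries labelled knockout.

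Ifngr1 and Ifngr2 encode the chains of the interferon gamma receptor. Ifngr1 fell with LPS in every background. In BMDMs wild type went from 100.39, 97.71 and 98.79 FPKM to 22.03, 20.12 and 20.99 (-2.23, SE 0.05, limma adjusted p = 1.61e-10), and knockout from 97.13, 95.88 and 96.57 to 24.47, 25.31 and 24.02 (-1.97, SE 0.05, limma adjusted p = 3.59e-10). No library of an LPS group overlapped its PBS group. The fall remained at -1.46 and -1.31 relative to the median. In RAW264.7 it was -0.90 (SE 0.09, limma adjusted p = 4.97e-05) in wild type and -1.21 (SE 0.09, limma adjusted p = 5.07e-06) in the libraries labelled knockout, or -1.16 without replicate 1.

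Ifngr2 moved the other way or not at all. In BMDMs it went from 34.42, 34.52 and 33.18 FPKM to 49.03, 48.99 and 47.74 in wild type (0.51, under the fold, limma adjusted p = 3.98e-06), and from 34.99, 33.09 and 32.61 to 58.29, 59.88 and 57.28 in knockout (0.80, limma adjusted p = 1.55e-07). After LPS the 3 knockout libraries lay above the 3 wild-type ones, by 0.27 (SE 0.04, limma adjusted p = 0.00288), or 0.12 relative to the median. In RAW264.7 it ran from 24.09 to 29.43 FPKM over all groups. Ifngr1 divided by Ifngr2 went from 2.91 ± 0.07 to 0.433 ± 0.020 in wild-type BMDMs and from 0.687 ± 0.022 to 0.344 ± 0.049 in wild-type RAW264.7 (SD, n = 3). The transcript with the higher FPKM thus changed in BMDMs, and the receptor proteins were not measured here.

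**Figure D3:**
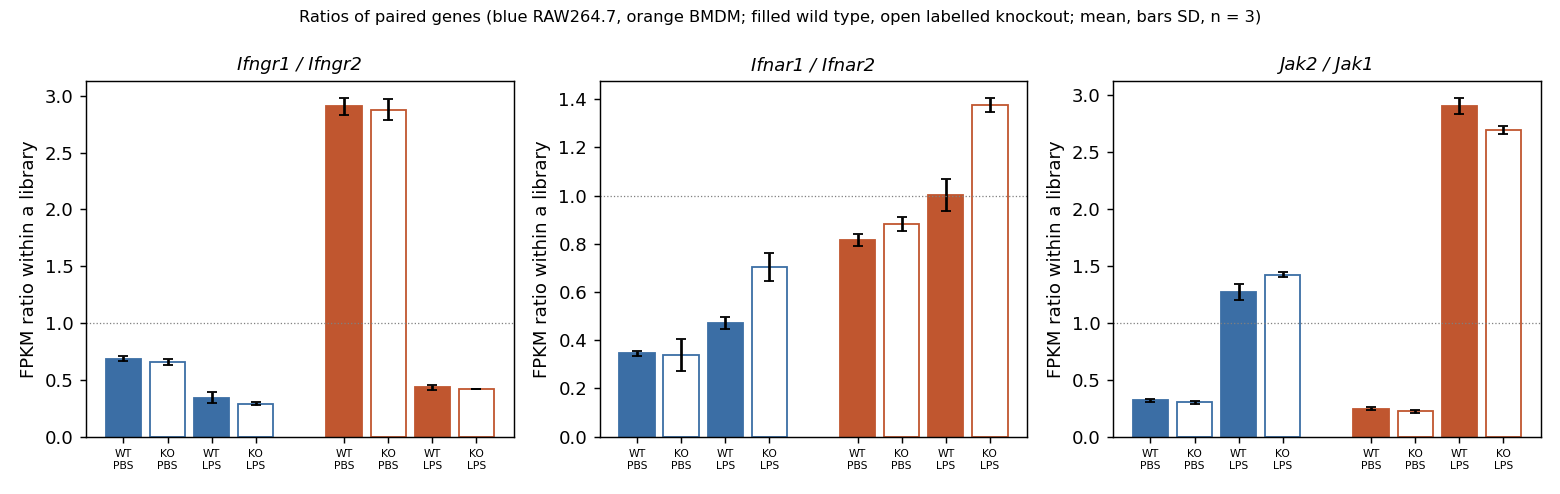
FPKM of one gene divided by that of its partner within each library, as mean with SD bars over 3 libraries per group, for the interferon gamma receptor chains, the type I receptor chains and the kinases. With LPS, Ifngr1 over Ifngr2 in BMDMs drops from 2.91 to 0.433, and Jak2 over Jak1 rises from 0.247 to 2.90, in wild type.

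Jak2, the kinase on the IFNGR2 chain, had the largest change with LPS among Jak1, Jak2 and Tyk2. BMDMs went from 10.82, 10.66 and 11.37 FPKM to 190.9, 197.43 and 201.73 in wild type and from 10, 9.53 and 9.39 to 192.31, 193.53 and 190.91 in knockout. The rises were 4.15 (SE 0.05, limma adjusted p = 9.19e-12) and 4.30 (SE 0.05, limma adjusted p = 7.14e-12). The genotypes overlapped with LPS, and their difference was -0.03 (95% interval -0.14 to 0.07). Relative to the median it was -0.18. It was -0.18 with edgeR (adjusted p = 5.98e-05) and -0.19 with DESeq2 (adjusted p = 2.45e-08), under the fold. With PBS the genotypes lay apart, with a difference of -0.18, also under the fold. In RAW264.7 the level went from 4.69, 4.52 and 4.82 FPKM to 21.32, 21.08 and 21.3 in wild type. The libraries labelled knockout went from 4.6, 6.49 and 6.67 to 29.6, 29.07 and 29.46. The rises were 2.16 in wild type and 2.31 in the libraries labelled knockout, or 2.14 without replicate 1 of their PBS group. The genotype difference with LPS was 0.47 (SE 0.13, limma adjusted p = 0.0250), under the fold, and reached 0.70 and was called with TPM scaling.

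Jak1, shared by both receptors, rose with LPS in BMDMs, by 0.61 (SE 0.05, limma adjusted p = 1.40e-06) in wild type and 0.71 (SE 0.05, limma adjusted p = 5.01e-07) in knockout. In RAW264.7 with PBS it was 14.35, 14.78 and 14.61 FPKM in wild type and 14.62, 22.15 and 22.54 in the libraries labelled knockout. Replicate 1 sat with wild type. The difference was 0.41 (SE 0.15, limma adjusted p = 0.0973), and without replicate 1 it was 0.61 (SE 0.06, limma adjusted p = 6.86e-05) and called. Jak2 likewise went from 0.32 to 0.48 without it. Tyk2, the partner of JAK1 on the type I receptor, was higher in the libraries labelled knockout with PBS by 0.79 (SE 0.13, limma adjusted p = 0.00405), or 0.96 without replicate 1, and with LPS by 0.65 (SE 0.13, limma adjusted p = 0.00690), and differed in BMDMs by -0.05 and 0.07. Jak2 divided by Jak1 went from 0.321 ± 0.013 to 1.27 ± 0.069 in wild-type RAW264.7 and from 0.247 ± 0.010 to 2.90 ± 0.072 in wild-type BMDMs (SD, n = 3).

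**Figure D4:**
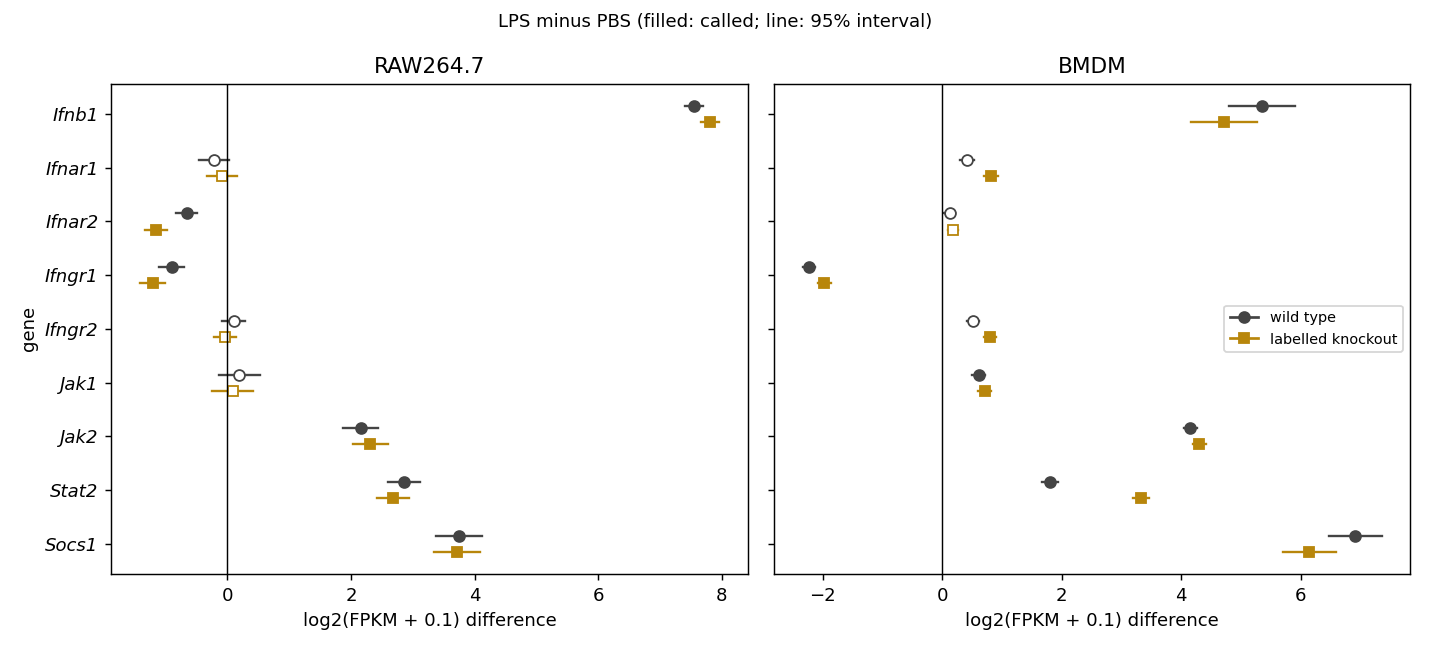
Difference between LPS and PBS for each of the 9 genes in log2(FPKM + 0.1), in wild type (circles) and labelled knockout (squares), with 95% intervals and filled symbols for genes called. Socs1 in BMDMs rises by 6.91 in wild type and 6.15 in knockout, and Ifngr1 lies below 0 in both cell types.

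Stat2, the ISGF3 subunit that only type I and type III interferons engage, differed between genotypes in resting BMDMs. With PBS it was 20.99, 23.56 and 20.34 FPKM in wild type and 8.5, 8.86 and 8.81 in knockout. The groups lay far apart, 2.48 times as high in wild type, a difference of -1.30 (SE 0.06, limma adjusted p = 1.51e-06). With LPS it was 72.74, 75.46 and 78.16 in wild type and 88.11, 88.02 and 88.65 in knockout. The difference had turned to 0.23 (SE 0.06, limma adjusted p = 0.0271), under the fold and 0.08 relative to the median. The interaction was 1.52 (SE 0.08, limma adjusted p = 2.03e-05).

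Irf9, which binds DNA within ISGF3, was also lower in resting knockout BMDMs. With PBS it was 12.16, 13.25 and 12.22 FPKM in wild type and 6.32, 7 and 6.55 in knockout (-0.91, SE 0.05, limma adjusted p = 8.95e-06). With LPS the difference was -0.05 (limma adjusted p = 0.616), and the interaction was 0.86 (SE 0.08, limma adjusted p = 0.000261). Stat2 divided by Irf9 was 1.72 ± 0.057 in wild type and 1.32 ± 0.046 in knockout with PBS, and 3.99 ± 0.21 and 4.84 ± 0.054 with LPS (SD, n = 3).

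In RAW264.7 Stat2 showed no such gap. With PBS it was 3.51, 3.44 and 3.57 FPKM in wild type and 2.75, 3.82 and 3.75 in the libraries labelled knockout, which overlap (-0.04, 95% interval -0.30 to 0.22). The difference was 0.11 without replicate 1, and 0.14 with TPM scaling. The interaction for Stat2 was -0.18, and -0.33 (limma adjusted p = 0.0232) without that library. With LPS it was 25.44, 26.12 and 26.46 against 22.02, 22.4 and 22.43 (-0.22, SE 0.11, limma adjusted p = 0.204), and 0.01 with TPM scaling. Irf9 was lower in the libraries labelled knockout with PBS (-0.71, SE 0.11, limma adjusted p = 0.00303, and -0.69 without replicate 1) but 0.01 apart with LPS.

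**Figure D5:**
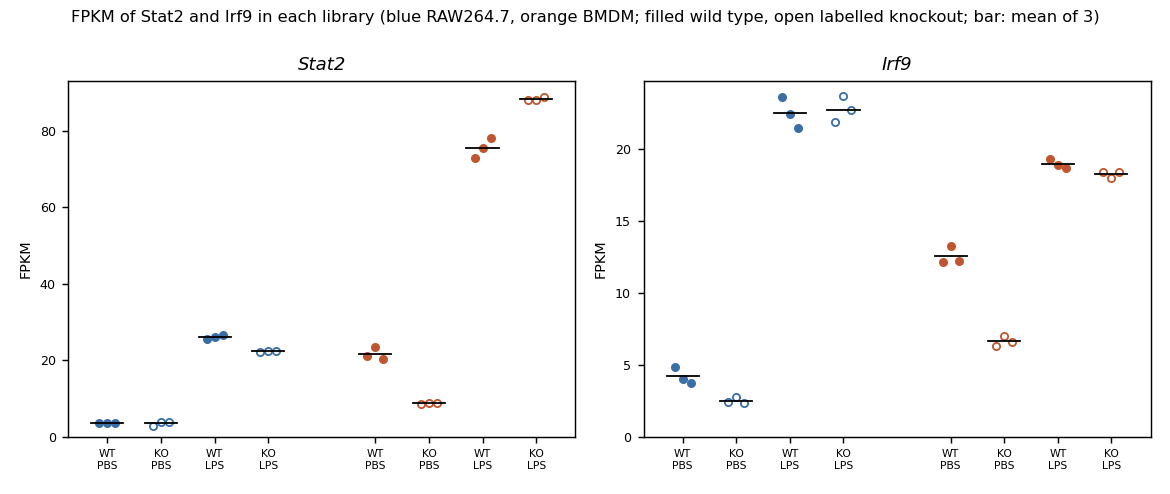
FPKM of Stat2 and Irf9 in each library (RAW264.7 blue, BMDMs orange, wild type filled, labelled knockout open), with a bar at the mean of each group of 3. In BMDMs with PBS all 3 knockout libraries lie below all 3 wild-type libraries for both genes, and with LPS the wild-type and knockout means are 75.5 and 88.3 for Stat2 and 18.9 and 18.2 for Irf9.

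The promoter of Stat2 (RefSeq, GRCm38.p6, plus strand, chr10:128270266-128270295) is shown because it holds letters of the interferon-stimulated response element, the sequence that ISGF3 is known to recognise. Capitals mark GAAA, 2 bases of any kind and GAAA, or the same letters on the other strand, present in 3.44% of promoters, 213 to 222 bases before the start.
Stat2: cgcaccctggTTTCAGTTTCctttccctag
Socs1 was the other member with this motif. The GAS motif, TTC, 3 bases of any kind and GAA, which reads alike on both strands, is held by 8.30% of promoters and was found in those of Ifnar1 and Ifnar2.

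Socs1, the feedback inhibitor of the JAK kinases, was lower after LPS in knockout BMDMs and in the RAW264.7 libraries labelled knockout. In BMDMs with LPS it reached 37.88, 29.72 and 29.46 FPKM in wild type and 16.78, 13.22 and 16.91 in knockout. The groups did not overlap, and wild type was 2.07 times as high, a difference of -1.04 (SE 0.20, limma adjusted p = 0.00531). With PBS both genotypes were low, from 0.09 to 0.25 FPKM, and overlapped. LPS raised Socs1 by 6.91 (SE 0.20, limma adjusted p = 1.19e-09) in wild type and 6.15 (SE 0.20, limma adjusted p = 2.93e-09) in knockout. The interaction was -0.76 (SE 0.28, limma adjusted p = 0.167), and -0.94 and called with a pseudocount of 1.

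In RAW264.7 with LPS Socs1 reached 3.2, 3.65 and 3.36 FPKM in wild type and 2.1, 1.72 and 2.27 in the libraries labelled knockout, again apart (-0.72, SE 0.17, limma adjusted p = 0.0129). The call was lost with a pseudocount of 1 (-0.54) and with TPM scaling (-0.50), both in the same direction. With PBS it was 0.13, 0.15 and 0.21 against 0.1, 0.04 and 0.05 FPKM (-0.70, SE 0.17, limma adjusted p = 0.0279). That call stands on 20 counts against 9, a ratio of 0.410 with an exact 95% counting interval of 0.164 to 0.942. It was lost with a pseudocount of 1, where the difference shrank to -0.13 (limma adjusted p = 0.230), with DESeq2, where it was -1.34 (adjusted p = 0.0690), and without replicate 2 or 3 of either group, and was -0.85 without replicate 1 of the libraries labelled knockout.

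Socs3 restrains gp130 signalling. In RAW264.7 with LPS it too was lower in the libraries labelled knockout, at 139.08, 142.92 and 146.38 FPKM in wild type against 105.45, 113.8 and 111.27 (-0.37, SE 0.08, limma adjusted p = 0.0106), under the fold and not called. In BMDMs with LPS it was 270.68, 255.47 and 262.41 FPKM in wild type and 297.09, 297.54 and 311.53 in knockout (0.20, SE 0.08, limma adjusted p = 0.109). In BMDMs with PBS it was higher in knockout, at 1.20, 1.33 and 1.11 FPKM against 0.61, 0.73 and 0.68 (0.76, SE 0.08, limma adjusted p = 0.000352). Socs1 divided by Socs3 with LPS was 0.123 ± 0.015 in wild-type BMDMs and 0.0517 ± 0.0064 in knockout (SD, n = 3).

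The Socs1 promoter (RefSeq, GRCm38.p6, minus strand) is shown for the same motif, in 2 matches that overlap, at chr16:10785600-10785629 and chr16:10785594-10785623. They lie 74 to 83 and 68 to 77 bases before the start.
Socs1 far: agacttgccgGAAAGAGAAAccgaaagcgg
Socs1 near: gccggaaagaGAAACCGAAAgcgggggtgg
Stat2 and Socs1 share these letters and rose with LPS in every background. So did Ifnb1 and Jak2, whose promoters held 0 matches, and a link between motif and level was not tested. The genotype differences of Stat2 and Socs1 in BMDMs were called in different treatments.

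Other genes of the pathway were listed by role, 61 in all, of which 40 were tested in RAW264.7 and 47 in BMDMs. Of 11 interferon targets, 8 were lower in knockout BMDMs with PBS, where 0.916% of all genes were, and 0 were called with LPS under limma, where 9 of the 11 had an unadjusted p under 0.05. The share of all genes with such a p was not computed. Over all roles 2 of the 47 genes tested were called with LPS under limma, where 4.76% of all genes were. The count was 5 with median-ratio scaling, where 1239 of 26973 genes were called. It was 4 with edgeR and 6 with DESeq2, where 1279 of 14057 and 1175 of 27049 genes were. The median over the 11 with PBS was -2.12, beside 0.01 over all genes tested. The largest was Irf7, a transcription factor that amplifies the interferon response, from 23.5 to 2.05 FPKM (-3.45, SE 0.09, limma adjusted p = 6.85e-08). Usp18, an inhibitor that acts at IFNAR2, went from 7.57, 9.04 and 7.4 FPKM to 1.09, 1.14 and 1.49 (-2.60, SE 0.11, limma adjusted p = 1.16e-06). In the BMDM interaction 7 of 11 targets were called, all higher, where 1.91% of all genes were called higher.

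In RAW264.7, 5 of 11 targets were lower in the libraries labelled knockout with PBS and 6 of 11 with LPS, where 3.77% and 7.6% of all genes were lower. Without replicate 1 the PBS count was 5 of 11, while the count over all genes rose from 1007 of 26740 to 2152 of 26538. Irf7 was lower with PBS by -3.23 (SE 0.08, limma adjusted p = 2.27e-08), or -3.20 without replicate 1. Rsad2, an antiviral enzyme, went from 61.1 to 5.97 FPKM with LPS (-3.34, SE 0.26, limma adjusted p = 3.52e-05). Usp18 was lower with PBS (-3.14, or -3.35 without replicate 1) and with LPS (-1.14). Genes that were higher included Il10ra, the interleukin 10 receptor chain, with PBS (1.29, SE 0.10, limma adjusted p = 5.06e-05, and 1.33 without replicate 1), and with LPS Stat5a (1.33, SE 0.06, limma adjusted p = 1.85e-06), Il6st (0.98) and Socs4 (0.70). In BMDMs with LPS Il10ra was lower instead (-0.62, SE 0.04, limma adjusted p = 2.42e-05).

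Other interferon ligands were scarce. Of 20 listed, 0 had a count in RAW264.7, and 6 had any in BMDMs. Ifna5 had 35 counts in wild-type BMDMs with LPS and 0 in knockout, so that it was at least 10.8-fold lower in knockout. Ifng had 0 counts in every library, so no interferon gamma transcript was detected at this depth beside the receptor chains described above.

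Genes whose profile was most like each member were taken among 10452 genes, as the smaller of 2 Pearson correlations, over 12 RAW264.7 and 12 BMDM libraries. These describe the libraries, which share the LPS contrast, and carry no test. They were Csrnp1 (0.992) and Nr4a3 (0.991) for Ifnb1, Ppfia1 (0.949) and Map4 (0.927) for Ifnar1, and Asb13 (0.947) and Abcg1 (0.944) for Ifnar2. For Ifngr1 they were Osbpl9 (0.995) and Tfeb (0.992), and for Ifngr2 Casp1 (0.748) and Rhof (0.730), the weakest match. Jak1 was most like Lims1 (0.985) and Gna13 (0.976), and Jak2 most like Peli1 (0.997) and Zup1 (0.996). Stat2 was most like Tent5a (0.993) and the interferon-stimulated gene Oasl1 (0.992), and Socs1 most like Cxcl10 (0.995) and Rap1b (0.995).

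In the deposited positions 7 of the 9 genes overlapped no other gene. Jak1 overlapped Raver2 and Gm24468 on the other strand, with at most 9 and 2 counts in a library, and Gm12785 on its own strand, with at most 1. Ifnar2 overlapped Gm21970 on its own strand, with at most 2. The positions in the tables differ from GENCODE M21 on GRCm38 for all 9 genes although the labels name mm10, so none of them is printed, and promoters come from RefSeq alone.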

How the data were processed

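RNA-seq libraries of RAW264.7 cells and BMDMs were taken from 1 deposited table per cell type. The authors deposited counts per gene and FPKM made from them, with annotation columns (gene ontology and pathway terms) that were not used. For the aligner, the counting program and the strand setting, the choice is not stated in the sources used here. Per the labels the build is mm10, which the deposited positions do not match. Where a gene had more than 50 counts, FPKM recomputed from them lay within 1% of the deposited FPKM in 99.88% (RAW264.7) and 99.51% (BMDMs) of cases. Groups came from sample titles, because the genotype tag contradicts the title in 12 of 24 samples. 0 columns of values were left without a sample.

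Group means were fitted per cell type with limma 3.58.1 (R 4.3.3) on log2(FPKM + 0.1), two-sided, with Benjamini-Hochberg adjustment over 26740 genes in RAW264.7 and 26973 in BMDMs with an FPKM above 0 in any library. Genes called had an adjusted p under 0.05 and a fold of at least 1.5, as in the study's methods. Alternatives were a pseudocount of 1, an FPKM of at least 1 in 3 libraries, TPM and median-ratio scaling, the replicate number as a block, edgeR 4.0.16 (quasi-likelihood) and DESeq2 1.42.0 on counts, and each library left out. The fits were also run on simulated counts in which only the genotype difference with PBS was set. These held no LPS effect, no shift of the median and no library that stood apart. Their outcome is not given here. Totals of 11638273 to 22873094 counts leave genes under 0.2 FPKM with few counts.

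The 9 genes and all lists were chosen with earlier results of these data known. Beside the 9, the text names Tyk2 and Irf9, and per role, cell type and genotype comparison the called gene with the largest difference, libraries apart and at least 1 FPKM in either group, and the 2 genes most like each member. A further gene that this rule names is not reported here. Ratios between genes, Ifna5 and Ifng were added after values were seen. Counting intervals are exact at 95% and floors are 3 counts over a group.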

Additional observations from a re-analysis of the deposited data

Results flagged for a closer look

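In BMDMs the genotype difference changed with LPS by a called interaction in limma for Stat2 (1.52). Among the other named genes it did so for Irf9 (0.86), Usp18 (2.32), Irf7 (2.90) and Rsad2 (1.89). These are on the log2 scale, and a positive value means that knockout minus wild type was higher with LPS than with PBS. Usp18, Irf7 and Rsad2 still lay lower in knockout with LPS, at 153, 131 and 2696 FPKM against 186, 192 and 3380. Usp18 and Irf7 were named for a large PBS difference, which enters the interaction and favours a positive value. In RAW264.7 the interaction was called and positive for Irf9 (0.73), Usp18 (1.99), Irf7 (2.41) and Stat5a (0.86). It was called and negative for Il10ra (-1.23) and Rsad2 (-2.42). Without replicate 1 of the PBS libraries labelled knockout, these were all called again. They were 0.70 for Irf9, 2.21 for Usp18, 2.39 for Irf7, 0.84 for Stat5a, -1.28 for Il10ra and -2.45 for Rsad2. In RAW264.7 too, the genotype differences that named these genes, Irf9 apart, enter the interaction and can favour its sign.

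For 5 of the 9 genes, in at least 1 contrast, every library of one group lay on one side in RAW264.7 and on the other in BMDMs. The share of all genes that did so was not computed, so the count is a description only. The difference between cell types was not tested, since the tables were normalized separately. Between genotypes with LPS, Ifnb1 was 0.26 in RAW264.7 and -1.25 in BMDMs, Ifngr1 was -0.25 and 0.22, and Stat2 was -0.22 and 0.23. For Ifnb1 in RAW264.7 the adjusted p was 0.133 with edgeR and 0.218 with DESeq2. With TPM scaling the RAW264.7 values were -0.02 for Ifngr1 and 0.01 for Stat2, and relative to the median of expressed genes the BMDM values were 0.08 for both. Between genotypes with PBS, Ifnar2 was 0.17 in RAW264.7 (0.12 without that library) and -0.11 in BMDMs, neither called. Between LPS and PBS in wild type, Ifnar1 was -0.21 in RAW264.7, 0.02 with median-ratio scaling, and 0.42 in BMDMs. For the same contrast Ifnar2 was -0.66 in RAW264.7 and 0.13 in BMDMs. It was -1.15 in the RAW264.7 libraries labelled knockout (-1.11 without that library) and 0.18 in knockout BMDMs. Relative to the median the wild-type values were -0.46 in RAW264.7 and 0.89 in BMDMs. Those labelled knockout were -0.94 and 0.83.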

How the results depend on the processing

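Of 1710 differences of the 9 genes under the alternatives, 13 lost a call, 17 gained one and 0 reversed a called direction. The number of the 9 genes called between genotypes in RAW264.7 with PBS, 1, became 0 with a pseudocount of 1 and with DESeq2, and ran from 0 to 2 when a library was left out, with 2 (Jak1 and Socs1) without replicate 1 of the libraries labelled knockout and 0 without replicate 2 or 3 of either PBS group. With LPS the count of 1 became 0 with a pseudocount of 1. In BMDMs with PBS the count of 1 ran from 1 to 2, with Ifnb1 added without replicate 1 of wild type with PBS, where it has 0 counts. The BMDM interaction, 1, became 3 with a pseudocount of 1 (Ifnb1, Socs1 and Stat2). The cause was not tested. In wild-type BMDMs, the LPS call of Jak1 was lost with TPM scaling (0.57) and without replicate 3 of the LPS group (0.58). Among all genes in RAW264.7 with PBS, 2287 were called, 5523 without replicate 1 of the libraries labelled knockout, 1474 with a pseudocount of 1 and 1288 to 1426 without another PBS library. The RAW264.7 interaction went from 521 to 904 genes without that replicate 1. A pseudocount of 1 took the genes called between genotypes from 4635 to 3054 in RAW264.7 with LPS, from 490 to 256 in BMDMs with PBS and from 1285 to 439 with LPS, and the BMDM interaction from 789 to 402. TPM scaling moved the median genotype difference in RAW264.7 to 0.21 with PBS and 0.23 with LPS, and the share of calls that were higher from 56.0% to 72.5% and from 56.1% to 75.8%. Median-ratio scaling moved the higher share of the BMDM interaction from 65.1% to 46.8%. Libraries with equal replicate numbers were at most weakly alike, and weak pairing is not excluded. Correlations of their deviations were -0.04 to 0.08 for RAW264.7 and -0.06 to 0.07 for BMDMs. The means were 0.015 and 0.019, against -0.0071 and -0.0093 for unequal numbers. Of the libraries, 8 of 12 and 7 of 12 correlated best with their own number. With the replicate block the counts of the 9 genes called were 1, 1, 6, 6 and 0 in RAW264.7 and 1, 2, 6, 8 and 1 in BMDMs, as without it. Low counts limit what can be said of Ifnb1 and Socs1 with PBS.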
